A study of Rattus norvegicus with 8 samples.

Results

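The node of Ranvier and its paranode are the short stretches of a myelinated axon where Schwann cell and axon are held together by a small set of adhesion proteins. The transcripts of these proteins were examined in rat sciatic nerve allografts and in unoperated nerve. The genes were chosen by name, as the rows of the normalized count table whose gene symbol was Nfasc, Nrcam, Cntn1, Cntn2, Cntnap1, Cntnap2, Gldn, Ank3 or Cadm4. Of these 9 genes, 8 had a row among the 32545 genes of the table, and all 8 passed the filter on low counts. Cntnap2 was not analysed here.

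At the node, gliomedin released from Schwann cell microvilli binds neurofascin and NrCAM, and ankyrin G ties these receptors and the sodium channels to the cytoskeleton beneath the axon membrane. At the flanking paranode, contactin and its partner Caspr on the axon face the glial form of neurofascin on the loops of the Schwann cell. Farther out, the Cntn2 protein sits with potassium channels at the juxtaparanode, and Cadm4 lines the Schwann cell side of the internode. The cell bodies of sciatic axons lie in the spinal cord and the ganglia, so most mRNA for the axonal proteins is made outside the nerve.

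RNAseq libraries were compared from 3 groups of female outbred Sprague Dawley (Envigo) rats aged 3 to 6 months, with 1 library per animal. The PEG group (n = 3) held sciatic nerve allografts (PNAs) joined by the PEG-fusion protocol and taken 14 days after the operation, and the negative control (NC) group (n = 3) held allografts that were operated on in the same way without polyethylene glycol and taken on the same day. Both kinds of graft were washed with hypotonic saline and methylene blue and sutured, donors were not tissue matched, and hosts were not immunosuppressed. Unoperated (Unop) sciatic nerves (n = 2) were the control of both, so every comparison with Unop shares those 2 nerves. All values are normalized read counts, and a gene was called when the adjusted p of limma, fitted to all 16478 tested genes, was under 0.05. A gene level count sums the isoforms of a gene, so the glial and axonal forms of Nfasc, or the long and short forms of Ank3, were not separated.

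Depth ranged from 32472925 to 39959620 reads on genes per library. The Schwann cell identity gene Sox10 was read in all 8 libraries, at 3864 to 4257 normalized counts in Unop, 2491 to 2686 in PEG and 1196 to 1792 in NC. The summed level of 10 myelinating Schwann cell markers was 2918780 to 3538030 in Unop and 39819 to 49099 in PEG, and among NC it was 69277 in NC 1 against 14928 to 19738 in the others. NC 1 and NC 3 also stood apart in transcripts of skeletal muscle, whose 4 measured markers summed to 366669 in NC 1 and 135160 in NC 3 against 2041 to 18938 in the other 6 libraries. Results that rest on these libraries are therefore also given without them, an alternative chosen after seeing the data. The Unop nerves also differed from the grafts in other tissue. Perineurial cell markers summed to 79027 to 91491 in Unop and 4303 to 7331 in the grafts. Adipocyte markers summed to 52721 to 94475 in Unop and 3587 to 9144 in the grafts. Itgb4, counted below among the matrix genes, is also a perineurial marker. The part of these tissues in the comparisons with Unop was not tested. In bulk tissue, fewer cells of a type and less RNA per cell cannot be told apart.

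The upstream sequence of Cntn1 is shown because it was the member that rose in both grafts against unoperated nerve. It is the 250 bases before the start of transcription from RefSeq on GRCr8, a later assembly than the Rnor 6.0 of the data, at chr7:125252060-125252309 on the plus strand, printed in lower case throughout because it held none of the letters searched.
Cntn1: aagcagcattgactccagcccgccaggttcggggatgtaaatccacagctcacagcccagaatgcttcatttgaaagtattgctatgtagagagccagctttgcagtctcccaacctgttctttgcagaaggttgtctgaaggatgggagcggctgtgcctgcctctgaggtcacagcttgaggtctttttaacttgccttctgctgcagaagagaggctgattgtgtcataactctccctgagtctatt
The letters searched, on either strand, were GTGGGCG of the EGR family that includes the myelin regulator Egr2, ACAAAG and ACAATG of the SOX factors, TGANTCA of AP-1 and GGAATG of the TEAD factors. None occurred in this window or in the windows of Nfasc, Gldn, Ank3 and Cntn2, which with Cntn1 were the 5 members examined. Cadm4 was left out of the search by choice, and no window was at hand for Nrcam, Cntnap1 and Cntnap2. Across 33469 promoter windows of the same length, 6.27% held GTGGGCG, 11.1% ACAATG, 16.3% ACAAAG, 6.34% TGANTCA and 12.1% GGAATG. No match says only that these letters are not in these windows.

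Compared to unoperated nerve, most node transcripts were low in both kinds of graft. Cntn1 was higher in both, Nrcam was higher in PEG and lower in NC, and Cntnap1 was not called in either. In PEG-fused PNAs 5 of 8 members fell (Nfasc, Gldn, Ank3, Cadm4 and Cntn2) and 2 rose (Nrcam and Cntn1), where 28.6% of all tested genes were called lower and 29.1% higher. In NC PNAs 6 of 8 fell (the same 5 and Nrcam) and 1 rose (Cntn1), where 32.3% of all genes were called lower and 32.2% higher. The median log2 fold change over the 8 members was -1.47 for PEG and -2.01 for NC against Unop, and over all tested genes it was 0.01 and 0.02. Between the grafts, Nfasc, Nrcam and Cadm4 were higher in PEG than in NC, which is 3 of 8 where 15% of all tested genes were higher. None was called lower, where 13.9% of all genes were. At an unadjusted p under 0.05 limma gave 1 lower member (Cntn1) and 4 higher (Ank3 beside the 3 called). At an adjusted p under 0.05, edgeR and DESeq2 on the recovered reads called 0 members lower. The median over members for PEG against NC was 0.74, against 0.00 for all tested genes.

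**Figure D1:**
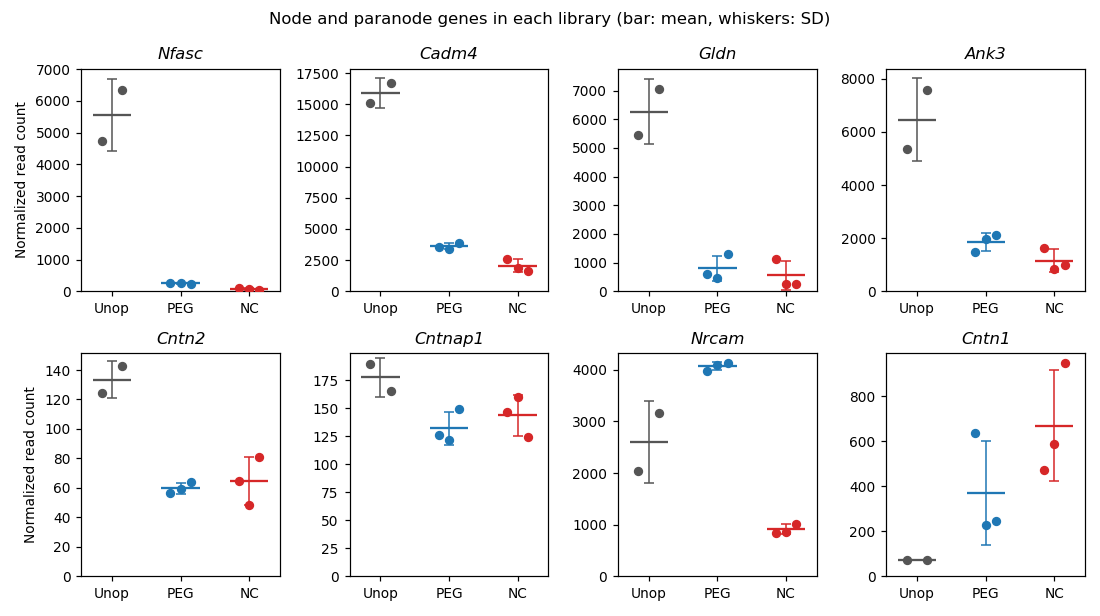
Normalized read count (vertical axis, linear from 0, a separate scale for each gene) of the 8 measured members in each library of the Unop, PEG and NC groups; points are libraries, bars the mean and whiskers the SD. Nfasc, Cadm4, Gldn and Ank3 are far lower in every graft library than in Unop, Nrcam is highest in PEG and lowest in NC, and Cntn1 is above Unop in every graft library.

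Neurofascin, the receptor shared by node and paranode, showed the largest fall of the 8 members in both grafts. Nfasc (ENSRNOG00000030515) was read at 263, 247 and 231 in PEG 1, PEG 2 and PEG 3, and at 89.4, 58.1 and 39.6 in NC 1, NC 2 and NC 3. The Unop nerves held 4750.0 and 6352. Each PEG library was thus above each NC library, and all grafts were far below both unoperated nerves. The group means were 247 ± 16.2 (SD, n = 3) in PEG, 62.3 ± 25.2 (SD, n = 3) in NC and 5551 ± 1133 (SD, n = 2) in Unop, so that PEG stood at 4.45% and NC at 1.12% of Unop. The log2 fold change was -4.47 (SE 0.30, limma adjusted p = 8.65e-06) for PEG against Unop and -6.52 (SE 0.30, limma adjusted p = 1.16e-06) for NC against Unop. PEG was 4.12-fold higher than NC, a log2 difference of 2.04 (SE 0.27, limma adjusted p = 0.00162). Without NC 1 and NC 3 the PEG against NC difference was 2.07 (limma adjusted p = 0.00388).

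Gliomedin, the Schwann cell ligand that gathers neurofascin and NrCAM at the node, also fell in both grafts but varied widely within each. Gldn (ENSRNOG00000024082) was 613, 464 and 1306 in PEG 1 to PEG 3, and 1128, 264 and 261 in NC 1 to NC 3. In Unop it was 5469 and 7070.4. PEG 3 and NC 1 were high for their groups, the PEG and NC values overlapped, and no graft library came near the unoperated nerves. The log2 fold change was -3.11 (SE 0.66, limma adjusted p = 0.00373) for PEG and -3.86 (SE 0.66, limma adjusted p = 0.000979) for NC against Unop. PEG against NC was 0.75 (95% interval -0.59 to 2.09, limma adjusted p = 0.368) and was not called. Without NC 1 it was 1.45 and called (limma adjusted p = 0.0288), and without both NC 1 and NC 3 it was 1.44 and not called (limma adjusted p = 0.0910).

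Of 10 markers of the myelinating Schwann cell, 9 were highest among the NC libraries in NC 1 (all but Egr2) and 8 were highest among the PEG libraries in PEG 3 (all but Mbp and Drp2). Prx, which encodes periaxin and is on that list, was 2665 in NC 1 against 458 to 515 in the other NC libraries, and 784 in PEG 3 against 363 to 439 in the other PEG libraries. Mag, a myelin adhesion gene outside that list, was 336 in NC 1 against 12.5 to 27.97, and 61.9 in PEG 3 against 11.1 to 13.1. The part of these transcripts in the Gldn values was not tested.

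NrCAM is the nodal receptor that binds gliomedin beside neurofascin, and its transcript followed another order. Nrcam (ENSRNOG00000004067) was 3978, 4103 and 4131 in PEG 1 to PEG 3 and 837, 864 and 1017 in NC 1 to NC 3. The Unop nerves held 2044 and 3168. The PEG libraries lay close together and above both unoperated nerves, and the NC libraries lay below both. The mean was 4071 ± 81.5 (SD, n = 3) in PEG, 906 ± 96.8 (SD, n = 3) in NC and 2606 ± 795 (SD, n = 2) in Unop. PEG was 4.51-fold higher than NC, a log2 difference of 2.17 (SE 0.16, limma adjusted p = 0.000343). Against Unop, PEG was higher by 0.68 (SE 0.17, limma adjusted p = 0.00972) and NC changed by -1.49 (SE 0.17, limma adjusted p = 0.000109) on the log2 scale, the latter turning to 0.23 and not called under the Schwann cell scaling. The rise over Unop rested on the lower unoperated nerve, and without Unop 1 it was 0.36 (limma adjusted p = 0.0524). Without NC 1 and NC 3, PEG against NC was 2.23 (limma adjusted p = 0.00395).

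The ratio of Nrcam to Gldn transcripts within a library differed between the grafts and unoperated nerve. The log2 of Nrcam over Gldn was -1.42 and -1.16 in the Unop nerves, 2.70, 3.14 and 1.66 in PEG 1 to PEG 3, and -0.43, 1.71 and 1.96 in NC 1 to NC 3. Every graft library was above both Unop nerves, with NC 1 nearest to them, and the PEG and NC values overlapped. Such a ratio also depends on transcript length, so it is read between groups and not as the amount of one protein over the other. The log2 of Nrcam over Nfasc moved likewise from a mean of -1.11 in Unop to 3.91 to 4.16 in PEG and 3.21 to 4.65 in NC. No test was run on these ratios.

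Ankyrin G, the scaffold that anchors nodal receptors and sodium channels, was low in both grafts. Ank3 (ENSRNOG00000053288) was 1489, 1976 and 2102 in PEG 1 to PEG 3, 1641, 835 and 995 in NC 1 to NC 3, and 5349 and 7566 in Unop. The grafts did not reach the unoperated nerves, and NC 1 lay within the PEG values. The log2 fold change against Unop was -1.79 (SE 0.29, limma adjusted p = 0.000922) for PEG and -2.52 (SE 0.29, limma adjusted p = 0.000102) for NC. PEG against NC was 0.73 (95% interval 0.13 to 1.32) and missed the threshold over all genes (limma adjusted p = 0.0673). It was called without NC 1 (1.01, limma adjusted p = 0.00969), without NC 1 and NC 3 (1.14, limma adjusted p = 0.0236) and by DESeq2 (0.68, adjusted p = 0.0340), but not by edgeR (0.69, adjusted p = 0.0863).

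Contactin, the axonal receptor of the paranode, was the member that rose in both grafts. Cntn1 (ENSRNOG00000004438) was 70.8 and 72.5 in the Unop nerves, 638, 227 and 246 in PEG 1 to PEG 3, and 473, 588 and 947 in NC 1 to NC 3. All grafts were above both unoperated nerves, and PEG 1 stood above NC 1 and NC 2 while the other PEG libraries were below every NC library. The mean was 370.2 ± 232 (SD, n = 3) in PEG and 669 ± 247 (SD, n = 3) in NC, which is 516% and 934% of the Unop mean of 71.7 ± 1.21 (SD, n = 2). The log2 fold change against Unop was 2.18 (SE 0.45, limma adjusted p = 0.00344) for PEG and 3.14 (SE 0.45, limma adjusted p = 0.00038) for NC. PEG against NC was -0.96 (95% interval -1.89 to -0.03, limma adjusted p = 0.111) and was not called. Without PEG 1 it was -1.44 and called (limma adjusted p = 0.0137).

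Summed leukocyte transcripts had the same order of groups as Cntn1. The 6 T cell markers summed to 148 to 295 in Unop, 1391 to 4063 in PEG and 16618 to 30995 in NC, and all 6 were above 0 in every library. The 6 macrophage markers summed to 20856 to 31082 in Unop, 222121 to 280537 in PEG and 496482 to 716530 in NC. Most of that sum was Lyz2, at 175468 to 229938 in PEG and 437481 to 646889 in NC. Of the 6, 5 were called lower in PEG than in NC. Cd68 went the other way, at 20030 to 22451 in PEG and 14060 to 18968 in NC, and was not called (limma adjusted p = 0.264). Their part in the level of Cntn1 was not tested.

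Caspr is the partner of contactin in the axonal membrane of the paranode, and its transcript was not called in any of the 3 comparisons. Cntnap1 (ENSRNOG00000020277) was 126, 122 and 149 in PEG 1 to PEG 3, 147, 160.3 and 124 in NC 1 to NC 3, and 190.0 and 165 in Unop. The graft groups overlapped, and all 6 graft libraries were below both Unop nerves. The log2 difference was -0.42 (95% interval -0.86 to 0.01, limma adjusted p = 0.0882) for PEG against Unop, -0.31 (95% interval -0.74 to 0.13, limma adjusted p = 0.189) for NC against Unop and -0.12 (95% interval -0.51 to 0.27, limma adjusted p = 0.643) between the grafts. Scaling each library to Schwann cell markers instead turned the differences from Unop to 0.82 in PEG and 1.42 in NC, both called (limma adjusted p = 0.0322 and 0.000562). The log2 of Cntn1 over Cntnap1 within a library was -1.41 and -1.18 in Unop and between 0.72 and 2.92 in the grafts.

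The contactin of the juxtaparanode, which Schwann cells also express, was lower in both grafts. Cntn2 (ENSRNOG00000009033) was 56.5, 58.9 and 63.8 in PEG 1 to PEG 3, 64.3, 48.4 and 81.0 in NC 1 to NC 3, and 124 and 143 in Unop. All grafts were below the unoperated nerves, and the NC values spanned those of PEG. The log2 fold change was -1.15 (SE 0.26, limma adjusted p = 0.00503) for PEG and -1.06 (SE 0.26, limma adjusted p = 0.0063) for NC against Unop, and under the Schwann cell scaling described further on these values were 0.10 and 0.66 and not called. The difference between the grafts was -0.08 with a 95% interval of -0.61 to 0.44 (limma adjusted p = 0.819), and it turned to 0.095 without NC 3 and to 0.30 without NC 1 and NC 3.

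Cadm4, the adhesion molecule by which the Schwann cell holds the axon along the internode, fell in both grafts and less in PEG. Cadm4 (ENSRNOG00000024243) was 3556, 3398 and 3901 in PEG 1 to PEG 3, 2612, 1893 and 1597 in NC 1 to NC 3, and 15084 and 16746 in Unop. The 3 groups did not overlap. The mean was 3618 ± 257 (SD, n = 3) in PEG, 2034 ± 522 (SD, n = 3) in NC and 15915 ± 1175 (SD, n = 2) in Unop. The log2 fold change was -2.14 (SE 0.19, limma adjusted p = 3.07e-05) for PEG and -3.00 (SE 0.19, limma adjusted p = 3.69e-06) for NC against Unop. PEG was 1.81-fold higher than NC, a log2 difference of 0.86 (SE 0.17, limma adjusted p = 0.00702), and without NC 1 and NC 3 this was 0.93 (limma adjusted p = 0.00735).

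**Figure D2:**
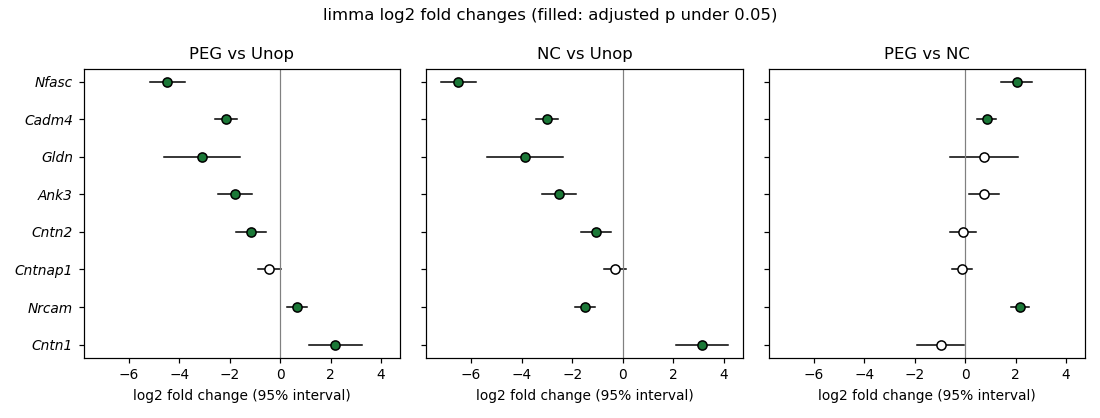
limma log2 fold change (horizontal axis) of each member for PEG against Unop, NC against Unop and PEG against NC, with 95% intervals as lines and filled points where the adjusted p was under 0.05. Cntnap1 crosses 0 in all 3 panels, and in the right panel Nrcam (2.17), Nfasc (2.04) and Cadm4 (0.86) are the filled points.

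Counts scaled by all genes do not fix the number of Schwann cells, so the fits were repeated with each library scaled to the mean log2 level of 6 pan-Schwann cell markers. That scaling moved the median over all tested genes to -0.48 for PEG against NC, 1.26 for PEG against Unop and 1.75 for NC against Unop. Nfasc was still higher in PEG than in NC (1.56, limma adjusted p = 0.000188), as was Nrcam (1.69, limma adjusted p = 3.01e-05), while Cadm4 was not called (0.38, limma adjusted p = 0.170). Cntn1 was then called lower in PEG than in NC (-1.44, limma adjusted p = 0.00847). The falls of Nfasc, Gldn and Cadm4 against Unop were called in both grafts, and that of Ank3 was called in NC only (-0.79, limma adjusted p = 0.0109, against -0.55, limma adjusted p = 0.0749, in PEG). The markers used for this scaling fell themselves against Unop in 4 of 6 cases in PEG and 5 of 6 in NC, where 28.6% and 32.3% of all tested genes fell. Between the grafts 4 of the 6 were higher in PEG and 1 (Gfra3) was lower, where 15% of all genes were higher and 13.9% lower. The scaling therefore also takes out a difference between the grafts in these markers, which did not all go the same way.

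**Figure D3:**
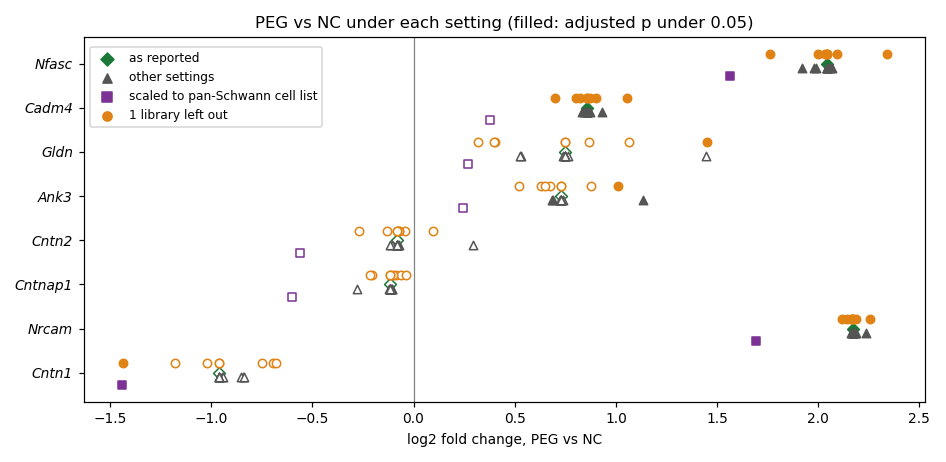
log2 fold change of PEG against NC (horizontal axis) for each member as reported (diamonds), with 1 library left out (circles), scaled to the pan-Schwann cell markers (squares) and under the other settings (triangles); filled symbols have an adjusted p under 0.05. Nfasc and Nrcam are filled under every setting and lie between 1.56 and 2.34, Cadm4 loses its call under the Schwann cell scaling, and Cntn2 is the member whose values cross 0.

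Beside the members, 60 other genes of the node and its surroundings had a row, in 4 groups by role, and 55 were tested. Against Unop, 35 fell and 8 rose in PEG, and 39 fell and 6 rose in NC. Over all genes tested 28.6% were lower and 29.1% higher in PEG, and 32.3% lower and 32.2% higher in NC. Between the grafts, 18 were higher and 5 lower in PEG, where 15% of all genes were higher and 13.9% lower. Without NC 1 and NC 3 these were 20 higher and 3 lower. The counts hold Kcna1, which passed the filter on low counts only through the Unop nerves. The median log2 fold change of the 55 genes was -0.97 for PEG against Unop, -1.55 for NC against Unop and 0.41 for PEG against NC. Under the Schwann cell scaling the split between the grafts was 3 higher and 9 lower in PEG. Over all 16478 tested genes that scaling gave 333 higher and 4510 lower, so most calls over all genes were then lower too.

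Among the 12 cytoskeletal anchors, which link adhesion proteins to spectrin and actin, 8 fell in PEG and 8 in NC against Unop, and 4 were higher in PEG than in NC. Epb41l3, which encodes the band 4.1 protein beneath paranodal neurofascin and Caspr, was 857 to 1378 in PEG, 510.3 to 585 in NC and 4101 to 5153 in Unop. Its log2 difference between the grafts was 0.96 (limma adjusted p = 0.0052). The spectrin gene Sptbn1 was 24413 to 28123 in PEG, 12961 to 14690.1 in NC and 37263 to 56519.7 in Unop (PEG against NC 0.90, limma adjusted p = 0.00462). Ank1, an ankyrin abundant in muscle and red cells, was 1240.3 in NC 1 and 524 in NC 3, the libraries rich in muscle transcripts, against 2.50 to 67.6 elsewhere, and was called lower in PEG than in NC (-4.60, limma adjusted p = 0.0493). Without NC 1 and NC 3 this was -1.54 (limma adjusted p = 0.536), and the call was also lost on leaving out NC 1, NC 3 or any 1 PEG library (limma adjusted p from 0.0727 to 0.154).

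Of 14 channel genes with a row, 11 passed the filter, and these did not move as 1 group. The potassium channels of the juxtaparanode were near 0 in most grafts, with Kcna1 at 776 to 1299.5 in Unop, 0.938 to 6.49 in PEG and 0 to 30.4 in NC. Kcna2 was 433 to 933 in Unop and 2.80 to 39.3 in the grafts. Kcna2 fell in PEG (-6.49, limma adjusted p = 0.00039) and in NC (-5.75, limma adjusted p = 0.00059). Kcna1 passed the filter only through the Unop nerves, where it was high, so its values are given with no test. Scn3b, an auxiliary sodium channel subunit with an adhesion-like domain, went the other way, at 205 ± 16.4 (SD, n = 2) in Unop, 429 to 802 in NC and 2184 to 2823 in PEG. PEG exceeded NC by 2.11 (SE 0.21, limma adjusted p = 0.000664) and Unop by 3.62 (SE 0.24, limma adjusted p = 7.84e-06) on the log2 scale. Scn4b was called lower in PEG than in NC (-4.52, limma adjusted p = 0.0156) and was again highest in NC 1 (975) and NC 3 (295). Without these libraries it was -2.07 (limma adjusted p = 0.141), and it was -4.11 (limma adjusted p = 0.0614) without PEG 2.

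The matrix and microvillus genes hold the nodal gap and its Schwann cell cover. Of 14 tested, 9 fell and 3 rose in PEG and 10 fell and 3 rose in NC, and the 3 that rose in both were Vcan, Msn and Ezr. The rises are a smaller share than over all genes tested (29.1% in PEG and 32.2% in NC), and the falls a larger one (28.6% and 32.3%), with no test of either difference. Versican (Vcan), a proteoglycan of the nodal gap and of scar matrix, was 13147 to 17169 in PEG, 8155 to 12240.4 in NC and 2439 to 2668 in Unop, with log2 fold changes of 2.50 (limma adjusted p = 1.29e-05) and 1.98 (limma adjusted p = 2.92e-05) against Unop. Hapln2, a link protein of the nodal matrix, fell from 838 to 931 in Unop to 2.81 to 18.3 in the grafts. Dystroglycan (Dag1), the laminin receptor of the Schwann cell surface, was 14130.3 to 18507 in PEG, 6974 to 8005 in NC and 27649 to 32483 in Unop, and was higher in PEG than in NC by 1.14 (SE 0.12, limma adjusted p = 0.000897).

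Of the 18 genes of internodal adhesion and of junctions between the loops, 14 were lower in PEG and 15 in NC than in Unop, and 7 were higher and 1 lower in PEG than in NC, beside the shares of all genes given above for each comparison. Cadm1, a further relative of Cadm4, rose in both (1.18 in PEG, limma adjusted p = 0.000371, and 0.78 in NC, limma adjusted p = 0.00292). Cadm3, the axonal and glial relative that binds Cadm4, fell from 15799.7 and 15938 in Unop to 226 to 437 in PEG and 377 to 551 in NC. Jam3, a junctional adhesion molecule of the loops, was 1786 to 1889 in PEG, 867 to 1157 in NC and 6633 to 7732 in Unop (PEG against NC 0.89, limma adjusted p = 0.0015). E-cadherin (Cdh1), which joins the loops of the same Schwann cell, was the gene lower in PEG, at 295 to 319.7 against 493 to 606 in NC and 6112 to 8706 in Unop (PEG against NC -0.85, limma adjusted p = 0.00397). The remaining genes called lower in PEG than in NC, beside Ank1, Scn4b and Cdh1, were Kcnab2 (-1.28, limma adjusted p = 0.00131) and the syndecan Sdc4 (-0.38, limma adjusted p = 0.0158).

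**Figure D4:**
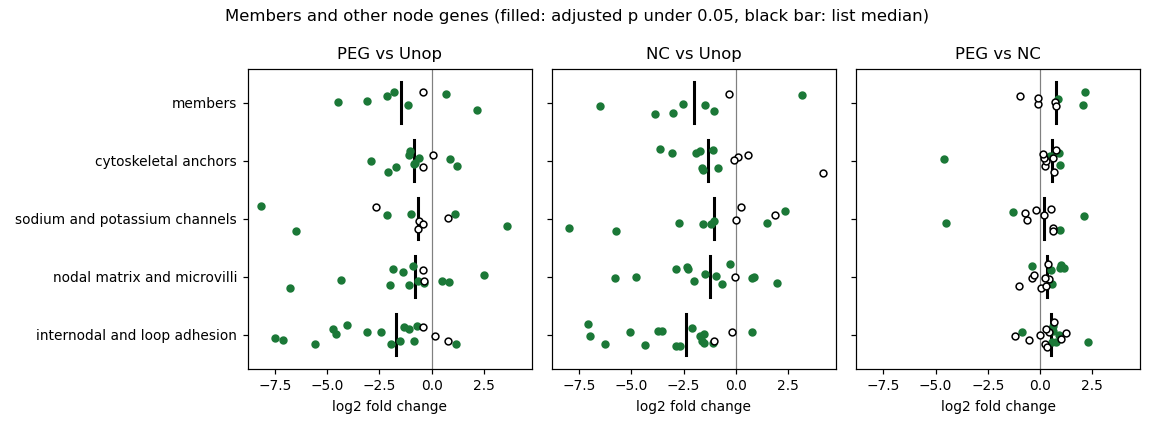
log2 fold changes (horizontal axis) of the 8 members and of 4 lists of other node genes for the 3 comparisons; each point is a gene, filled where the limma adjusted p was under 0.05, and black bars are list medians. Every list median is below 0 against Unop and above 0 for PEG against NC. Under the Schwann cell scaling the calls between the grafts were 3 higher and 9 lower among the other node genes. Over all 16478 tested genes they were 333 higher and 4510 lower.

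Of 7 relatives of the contactin and Caspr members with a row, 2 passed the filter. Cntn3 was 1.25 to 2.15 in Unop, 17.8 to 31.9 in PEG and 6.45 to 27.0 in NC. Cntn6 was read at 61.2 and 15.01 in the Unop nerves and at 1.08 or less in each graft. Cntn3 passed the filter of 10 normalized counts only through the grafts and Cntn6 only through the Unop nerves, in each case where it was high, so no test is read from either.

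The genes whose pattern over the 8 libraries was most like that of a member were named by Pearson's r of log2 values, as a description, since the 8 points fall into 3 groups and share those group differences. For Nfasc these were Pla2g5, Vwa1 and S100b (r = 0.998 each), the last a Schwann cell marker with 153431 to 167369 in Unop, 16280 to 16606 in PEG and 4875 to 7649 in NC. For Nrcam they were AABR07063279.1 (0.993), Ncs1 (0.988) and Itga7 (0.987), and Itga7, a laminin receptor subunit, ran at 5806 to 6422 in PEG, 2942 to 3081 in NC and 4660 to 4838 in Unop. For Gldn they were Fam69c (0.994), Slc35f1 (0.993) and C1ql3 (0.99), and Slc35f1 was likewise highest among the grafts in NC 1 (541) and PEG 3 (467). For Cadm4 they were Sorcs1, Hoxc5 and Kank4 (0.998 each). For Ank3 the nearest was Tspan15 (0.995), for Cntn2 Mas1l (0.993), for Cntn1 the short RNA RF00406 (0.99) and for Cntnap1 Gtf3a (0.972).

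**Figure D5:**
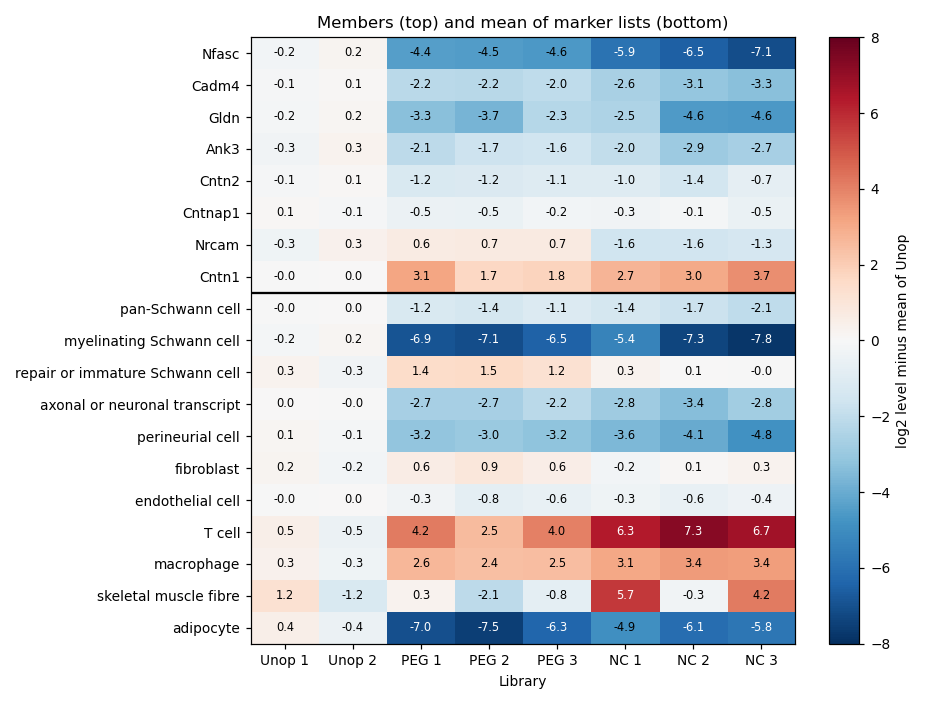
Heatmap of log2 level minus the mean of the Unop nerves, by library (columns), for the members (top) and for the mean over each list of cell type markers (bottom); numbers in cells are the plotted values. Nfasc lies below the pan-Schwann cell list in every graft library and above the myelinating list in every graft library except NC 1, Cntn1 is above 0 in all 6 grafts as are the T cell and macrophage lists, and the muscle list is high in NC 1 and NC 3.

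The spread between replicates also differed among the members. In PEG the SD was 2.00% of the mean for Nrcam, 6.19% for Cntn2, 6.57% for Nfasc and 7.10% for Cadm4, but 56.6% for Gldn and 62.6% for Cntn1. In NC it was 10.7% for Nrcam, 12.6% for Cntnap1, 40.4% for Nfasc and 90.7% for Gldn. The 95% intervals between the grafts were widest for Gldn (-0.59 to 2.09) and Cntn1 (-1.89 to -0.03).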

How the data were processed

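Polyadenylated RNA of 8 nerves was sequenced as paired reads from stranded libraries. Per the labels and methods, the authors checked reads with FastQC, aligned them to Rnor 6.0 with TopHat2, counted genes with HTSeq and normalized with DESeq2 size factors (versions not given in the sources used here). The deposited signal is this normalized count per gene, and 100% of values came out as whole reads (within 0.001) after size factors of 0.8 to 1.12 were recovered, giving 32472925 to 39959620 reads on genes. The authors' own fold changes and p-values, and the count files of single samples, were not used.

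A gene entered the tests if 2 or more libraries reached 10 normalized counts (16478 of 22798 with a read), and these were tested with limma 3.58.1 (trend) on log2(value + 1), 1 fit over the 3 groups without a block, and Benjamini-Hochberg adjustment over all of them at 0.05. A fold change on this scale understates the change of low genes. Alternatives were edgeR 4.0.16 and DESeq2 1.42.0 on recovered reads, TMM rescaling, scaling to pan-Schwann cell markers, other filters, a pseudocount of 8, 2 groups only, a robust fit, the replicate block and leaving out libraries. On simulated data limma recovered 200 of 200 changed genes in each comparison. False calls were 7 for PEG against NC (16204 genes), 14 for PEG against Unop (16191 genes) and 11 for NC against Unop (16201 genes). Recovery at the spread and differences of the members was not tested. The members and lists were chosen with earlier results of these data known. Named were all members, per list and comparison at most 4 genes of lowest adjusted p and those of largest spread, the genes behind counts of 5 or fewer or singled out in the text (chosen after their values were seen), and 3 genes most alike to a member. Replicates are separate animals, and intervals and tests cover the spread among these few. Upstream sequences other than those printed are not reported here.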

Additional observations from a re-analysis of the deposited data

How the results depend on the processing

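Most results kept their direction and their side of the threshold. Scaling to the pan-Schwann cell markers, which moved the median of all genes to -0.48, 1.26 and 1.75 (PEG against NC, PEG against Unop and NC against Unop), changed most. Under it 2 members were higher in NC than in Unop, 1 was lower in PEG than in NC and 3 were lower in PEG than in Unop. The other node genes then numbered 19 higher and 18 lower for NC against Unop and 3 higher and 9 lower for PEG against NC. For PEG against Unop they numbered 17 higher and 17 lower. Of all 16478 tested genes, 13067 were higher and 995 lower for NC against Unop under the same scaling. For PEG against NC 333 were higher and 4510 lower, and for PEG against Unop 11667 were higher and 1112 lower. Log2 fold changes that turned sign under it were those of Cntn2 (0.66 in NC and 0.10 in PEG against Unop, not called), Cntnap1 (1.42 in NC and 0.82 in PEG against Unop, limma adjusted p = 0.000562 and 0.0322) and Nrcam in NC against Unop (0.23, limma adjusted p = 0.442). These follow from the scaling itself, which adds the same amount to every gene. Cntn2 between the grafts turned to 0.30 without NC 1 and NC 3, and leaving out 1 library gave -0.27 to 0.095 (0.095 without NC 3). The cause was not tested.

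Leaving out 1 library gave 3 to 5 members higher in PEG than in NC (5 without NC 1, adding Gldn and Ank3), 0 to 1 lower (1 without PEG 1, Cntn1), and 1 to 2 higher in PEG than in Unop (1 without Unop 1, losing Nrcam). The other node genes lower in PEG than in NC numbered 3 without each PEG library in turn, and 3 lower and 20 higher without NC 1 and NC 3 together, a setting chosen after seeing the data. With the replicate block the members were called as before, at 3 higher and 0 lower for PEG against NC. The calls over all genes for that comparison were then 2055 lower and 2110 higher. Same-numbered PEG and NC libraries deviated together at r of 0.108, 0.109 and -0.0502, and the other PEG and NC pairs at -0.159 to 0.0976. Same-numbered pairs of a graft and a Unop library gave 0.136 to 0.157. Deviations of 2 Unop nerves from their mean mirror each other, so the same grafts gave -0.157 to -0.136 with the other nerve. With 3 and 2 animals per group, these values cannot decide whether the numbers pair the samples. Under the replicate block Nfasc was 2.04 (adjusted p = 0.00507 with limma) and Nrcam 2.17 (adjusted p = 0.00157 with limma) for PEG against NC.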
